A study of Mus musculus with 6 samples.

Results

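Small heat shock proteins are a family of chaperones, and 7 of their genes were described here in subcutaneous white adipose tissue (scWAT) of the mouse. The members were *Hspb1*, *Hspb2*, *Hspb3*, *Hspb6*, *Hspb7*, *Hspb8* and *Cryab*, taken by symbol from the 55401 genes of the count files. *Hspb1* was picked for its rise in these same libraries, so its values are given as a description without a test. The other members were listed for their family. RNA was sequenced from scWAT of 3 YT-FF and 3 YT-AKO male mice, all 8 weeks old. YT-AKO mice carried floxed *Yap* and *Taz* alleles and the AdipoqCre transgene, in which an adipocyte promoter drives Cre recombinase, so that other cells of the tissue keep both genes. The control libraries carry the label wild type, and they are called YT-FF after the methods, which give floxed alleles without Cre. The comparison asks how the tissue's transcripts differ when adipocytes lack YAP and TAZ, a pair of transcriptional coactivators that bind DNA through TEAD proteins.

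Small heat shock proteins share the alpha-crystallin domain and assemble into oligomers. They bind unfolding proteins without using ATP and hold them for refolding or degradation by ATP-dependent chaperones such as HSP70. Heat shock factor HSF1 drives several of them in stressed cells through heat shock elements, and muscle tissues express much of the family without stress. HSPB1 (HSP27) also binds actin and is phosphorylated by MAPKAPK2, and HSPB6 (HSP20) is phosphorylated by protein kinase A, the kinase that carries beta-adrenergic signals in adipocytes.

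The libraries held 17740987 to 21838493 counted fragments, and 16807 genes passed the filter on low counts. CPM relates counts to the library total after scaling by TMM, edgeR's correction for library composition, and TPM is a level per length, from counts divided by the summed exon length of the gene. Differences are log2 fold changes of YT-AKO over YT-FF from edgeR's quasi-likelihood test, and a gene was called at a Benjamini-Hochberg adjusted p under 0.05 over all tested genes. YT-AKO 2 stood apart, with a TMM factor of 0.777 against 0.954 to 1.16 elsewhere and 20501 genes with a count against 22810 to 24576. Of the deleted genes, *Yap1* was lower in the libraries labelled YT-AKO (log2 fold change -0.98), whereas the TAZ gene *Wwtr1* was higher (0.89). The authors reported less YAP and TAZ protein in YT-AKO scWAT by immunoblot. Gene counts cover all exons and all cells of the tissue, so they do not show the state of the floxed alleles in adipocytes. The differences also followed gene length, since tested genes under 1500 bp had a median log2 fold change of 0.62 and the others -0.07. TPM placed YT-AKO lower than CPM did for nearly all genes alike. The ratio of YT-AKO to YT-FF means was 0.639 times as high in TPM as in CPM at the median gene, and 0.591 to 0.678 times as high for most genes. In TPM, 54.5% of the tested genes had every YT-AKO library below every YT-FF library, and 7.52% had every one above. In bulk tissue, fewer cells of a type and less RNA per cell cannot be told apart.

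The starts of *Hspb1*, *Hspb8* and *Hspb6* are shown because these 3 members had the highest estimated differences and their windows hold letters of a heat shock element. The sequences come from RefSeq (GRCm38.p6) and are read 5′ to 3′ on the strand of the gene. They hold the 250 bases before the start site and, for *Hspb8*, also the first 20 bases after it. Capitals mark the head-to-head heat shock element GAANNTTC and the TEAD motif GGAATG.
Hspb1 (chr5:135887669-135887918, plus strand): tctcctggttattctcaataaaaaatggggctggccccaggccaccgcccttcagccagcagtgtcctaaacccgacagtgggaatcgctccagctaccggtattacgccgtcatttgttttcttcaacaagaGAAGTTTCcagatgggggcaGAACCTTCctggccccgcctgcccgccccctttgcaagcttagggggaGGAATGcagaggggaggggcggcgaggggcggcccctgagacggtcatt
Hspb8 (chr5:116422845-116423114, minus strand): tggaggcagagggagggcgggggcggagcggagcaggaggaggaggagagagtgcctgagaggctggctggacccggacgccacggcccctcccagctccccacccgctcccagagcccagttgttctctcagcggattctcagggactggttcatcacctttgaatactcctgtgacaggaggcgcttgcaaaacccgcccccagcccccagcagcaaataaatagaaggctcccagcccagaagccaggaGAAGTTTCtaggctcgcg
Hspb6, downstream of its 2 starts in the table (chr7:30553051-30553300, plus strand): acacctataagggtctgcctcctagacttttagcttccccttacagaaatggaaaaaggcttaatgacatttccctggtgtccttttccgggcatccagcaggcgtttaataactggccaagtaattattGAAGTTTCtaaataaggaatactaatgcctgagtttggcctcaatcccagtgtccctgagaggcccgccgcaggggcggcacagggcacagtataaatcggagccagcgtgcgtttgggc

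In the *Hspb1* window, GAANNTTC stood at -117 (gaagtttc) and again at -97 (gaaccttc), and GGAATG stood at -49. *Hspb8* had gaagtttc at 3 bases into the transcript, and the downstream window of *Hspb6* had the same 8 letters at -120. Both strands of windows from 250 bases before to 50 after each start were searched. The table held 6 windows for 5 of the members, namely *Hspb1*, *Hspb3*, *Hspb6*, *Hspb7* and *Hspb8*. *Hspb3* had GAANNTTC at -224, *Hspb7* had GGAATG on the reverse strand at 4, and the upstream window of *Hspb6* held none of the motifs. Neither the tail-to-tail element TTCNNGAA nor a CArG box, the motif bound by SRF, was in any of the 6 windows. Of 32851 windows of this length, 7.86% held GAANNTTC, 8.52% TTCNNGAA, 14.66% GGAATG and 1.629% a CArG box, and 113 (0.344%) held GAANNTTC at least 2 times, as *Hspb1* did. These matches describe letters and were not tested as sites.

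Per length, *Cryab*, *Hspb1* and *Hspb8* were the abundant members of control scWAT. *Cryab*, which encodes αB-crystallin, had 181 ± 89.4 TPM in YT-FF (mean ± SD, n = 3). *Hspb1* followed with 178 ± 7.08 TPM and *Hspb8* with 131 ± 8.71 TPM. The range of *Cryab* (120 to 283 TPM) covered those of both, while *Hspb1* (171 to 185 TPM) lay above *Hspb8* (124 to 141 TPM) in every YT-FF library. *Hspb6* was lower with 25.7 ± 4.07 TPM, and *Hspb2* (5.32 ± 3.70 TPM) and *Hspb7* (1.60 ± 1.03 TPM) were near the bottom, with ranges that overlapped. *Hspb3* was nearly absent (0.07 TPM).

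The make-up of the family differed between the groups, with *Hspb1*, chosen by its rise, as the largest part in YT-AKO. Summed over the 7 genes, the level was 522 ± 99.5 TPM in YT-FF and 1035 ± 242 TPM in YT-AKO (n = 3 each). The share of *Hspb1* in this sum was 38.6%, 39.7% and 26.9% in the YT-FF libraries, in order of replicate, and it was 70.3%, 78.1% and 60.0% in the YT-AKO libraries. *Cryab* made up 28.7%, 26.7% and 44.5% in YT-FF and 6.51%, 8.32% and 5.48% in YT-AKO. The order of the levels in YT-AKO was thus *Hspb1* (718 ± 186 TPM), *Hspb8* (208 ± 94.4 TPM), *Cryab* (69.3 ± 17.3 TPM) and *Hspb6* (33.0 ± 22.3 TPM). These sums and shares include *Hspb1*, which was chosen by its rise, and carry no test. A higher *Hspb1* by itself raises the sum and lowers the share of every other member.

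**Figure D1:**
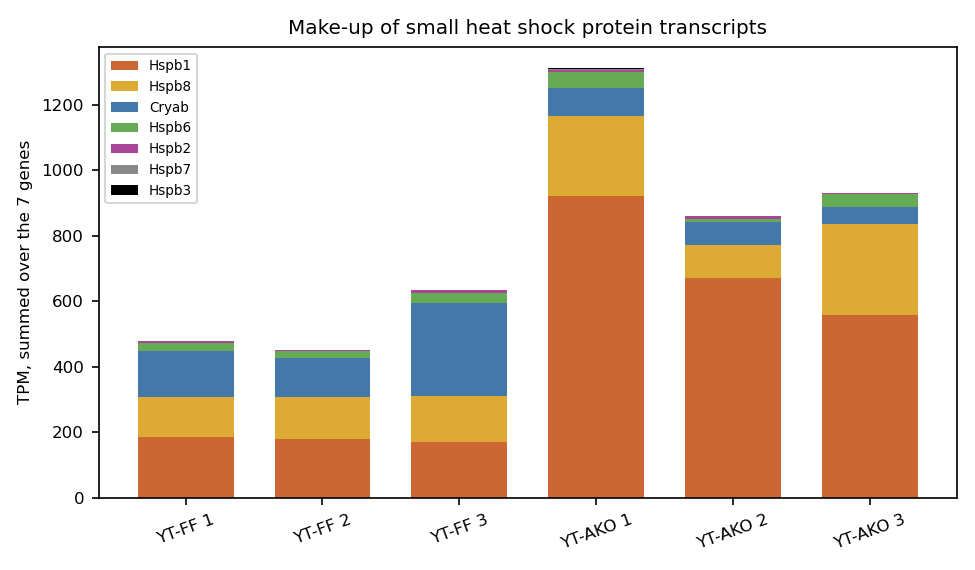
Stacked bars give the level of each of the 7 genes in TPM (vertical axis) in each library (horizontal axis). The bars total 451 to 636 TPM in YT-FF and 860 to 1312 TPM in YT-AKO, and the *Hspb1* segment is the largest in every YT-AKO library.

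*Hspb1* (ENSMUSG00000004951, chr5:135887919-135889563 of GRCm38, 1031 bp of exons) had 49.7, 46.8 and 48.9 CPM in the YT-FF libraries, in order of replicate, and 341, 395 and 212 CPM in the YT-AKO libraries. The YT-FF libraries were close together, with a coefficient of variation of 3.14%. Every YT-AKO library lay above them, as for 25.7% of the tested genes, and this separation goes with the choice of the gene by its rise. The mean went from 48.5 ± 1.52 to 316 ± 94.1 CPM (n = 3 each), a fitted log2 fold change of 2.71 (standard error 0.251), or 6.52-fold. In TPM, the ratio of the means was 4.02, smaller by the shift common to most genes. Every YT-AKO library was again above every YT-FF library, as for 7.52% of the tested genes on that scale. The fitted value ran from 2.27 to 2.94 over the other settings and left-out libraries, with 2.30 after a correction for gene length and 2.64 with skeletal muscle markers as a covariate. *Ywhag*, the nearest gene with more than a few counts, lies 18845 bp away on the other strand and did not pass the test (log2 fold change 0.32, edgeR adjusted p = 0.282).

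**Figure D2:**
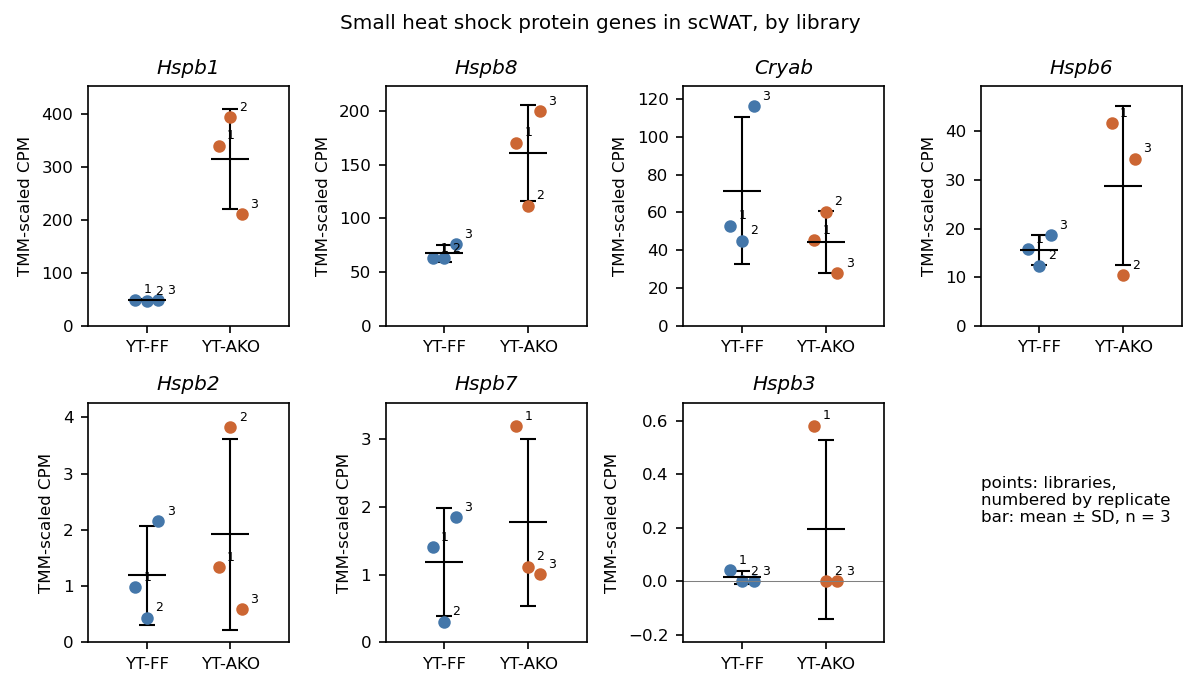
Each panel plots 1 gene in TMM-scaled CPM (vertical axis, its own range) for the 3 YT-FF and 3 YT-AKO libraries, with points numbered by replicate and bars for the mean ± SD (n = 3). *Hspb1*, picked for its rise, and *Hspb8* have every YT-AKO library above every YT-FF library, as do 25.7% of the tested genes. The groups of the other members overlap.

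*Hspb8* rose in YT-AKO, most in YT-AKO 3 and least in YT-AKO 2. HSPB8 (HSP22) works with the co-chaperone BAG3 to hand misfolded proteins to autophagy. The gene (ENSMUSG00000041548, chr5:116408491-116422864, 1950 bp) had 62.9, 63.1 and 76.0 CPM in YT-FF and 170, 112 and 200 CPM in YT-AKO. All YT-AKO libraries lay above all YT-FF libraries, as did those of 25.7% of the tested genes. The log2 fold change was 1.26 (standard error 0.233, 95% interval 0.72 to 1.80, edgeR adjusted p = 0.0194), a rise of 2.39-fold. In TPM, with its common shift, the groups overlapped. YT-AKO 2 had 101 TPM against 124 to 141 TPM in YT-FF, and YT-AKO 1 and 3 had 244 and 279 TPM. The call was lost without YT-FF 1 (log2 fold change 1.21, edgeR adjusted p = 0.112) and without YT-FF 2 (1.20, edgeR adjusted p = 0.114), settings in which 0 and 2 of all genes were called. Without YT-AKO 2 the value was 1.46 (edgeR adjusted p = 0.00158), a setting in which 5349 genes were called in place of 3636.

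*Hspb8* was the only one of the 5 tested members beside *Hspb1* that was called. Over all tested genes, 21.6% were called, 12.6% as higher and 9.01% as lower in YT-AKO. 1 call among 5 genes is near that background share.

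*Hspb6* had 15.8, 12.4 and 18.7 CPM in YT-FF and 41.6, 10.4 and 34.4 CPM in YT-AKO. YT-AKO 1 and 3 thus lay above every YT-FF library and YT-AKO 2 below every one. The gene (ENSMUSG00000036854, chr7:30552178-30555443, 2299 bp) shares 8.79% of its exon bases with neighbours, *Lin37*, *Proser3* and Gm38670. It did not pass the test (log2 fold change 0.88, standard error 0.453, 95% interval -0.17 to 1.93, edgeR adjusted p = 0.179). This outcome rested on YT-AKO 2, since without it the log2 fold change was 1.28 and the gene was called (edgeR adjusted p = 0.00307). Without YT-AKO 1 it was 0.53 (edgeR adjusted p = 0.420). The groups of *Hspb6* in TPM overlapped as well, with 33.0 ± 22.3 in YT-AKO.

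*Cryab* was the one tested member with an estimate below zero. It had 53.0, 45.1 and 116 CPM in YT-FF and 45.3, 60.4 and 27.8 CPM in YT-AKO (ENSMUSG00000032060, chr9:50751325-50756636, 1479 bp). The groups overlapped in CPM, YT-FF 3 stood high and YT-AKO 3 low, and the gene did not pass the test (log2 fold change -0.68, standard error 0.409, 95% interval -1.63 to 0.27, edgeR adjusted p = 0.242). YT-FF 3 carried much of this estimate, which was -0.14 without that library, and it was -1.06 after the correction for gene length. In TPM, every YT-AKO library (51.1 to 85.4 TPM) lay below every YT-FF library (120 to 283 TPM), as for 54.5% of the tested genes on that scale. In CPM this held for 25.8% of the tested genes and not for *Cryab*. The ratio of its means was 0.623 in CPM and 0.384 in TPM, which differ by a factor of 0.617, close to that of the median gene.

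*Hspb2* overlaps *Cryab* on the opposite strand (ENSMUSG00000038086, chr9:50751078-50752354, 834 bp). In the annotation the pair shares 252 exon bases (chr9:50751325-50751576), which are 30.2% of *Hspb2* and 17.0% of *Cryab*. Counting used no strand and left out fragments that overlapped both genes, so reads of the pair cannot be fully told apart. *Hspb2*, whose protein binds the myotonic dystrophy kinase DMPK in muscle, was covered in YT-FF by 23, 10 and 42 counts and in YT-AKO by 23, 65 and 10. Its counts were 0.97% to 1.86% of those of *Cryab* in YT-FF and 2.13% to 6.35% in YT-AKO. Within each group the libraries had the same order for both genes. The log2 fold change was 0.69 (standard error 0.784, edgeR adjusted p = 0.530), and it turned to -0.29 without YT-AKO 2. The ratio of the means was 1.61 in CPM and 0.906 in TPM, a factor of 0.563 that is somewhat below that of most genes, so the sign of this small difference followed the scaling.

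*Hspb7* and *Hspb3*, which are known mainly from heart and skeletal muscle, had few counts. *Hspb7* (ENSMUSG00000006221, chr4:141420779-141425311) was covered in YT-FF by 33, 7 and 36 counts and in YT-AKO by 55, 19 and 17. Its log2 fold change of 0.58 (standard error 0.717, edgeR adjusted p = 0.565) turned to -0.14 without YT-AKO 1. *Hspb3* (ENSMUSG00000051456, chr13:113662896-113663676) had 1 count in YT-FF 1, 10 counts in YT-AKO 1 and 0 in the other 4 libraries, and it did not pass the filter. A count of 0 allows up to 3 counts, or 0.132 to 0.177 CPM in those 4 libraries. No difference in *Hspb3* was detectable at this depth. Of the remaining family genes, which are lens or testis proteins, *Cryaa* had 1 to 12 counts, *Hspb9* 0 to 7 and *Odf1* 0 in every library, and none passed the filter.

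**Figure D3:**
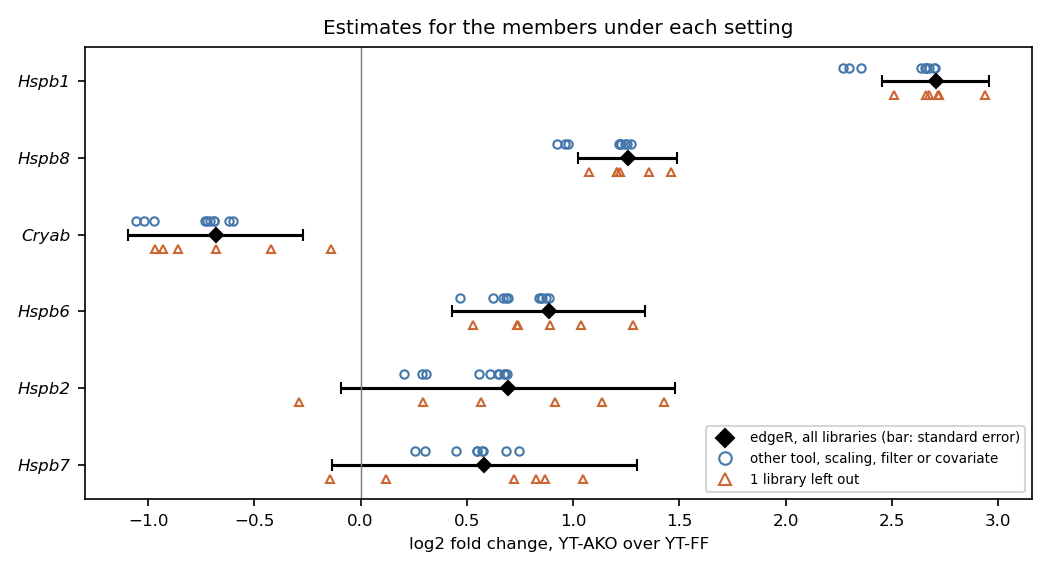
Log2 fold changes of YT-AKO over YT-FF (horizontal axis) for the 6 tested members (vertical axis), with diamonds and standard errors for edgeR on all libraries, circles for other tools, scalings, filters and covariates, and triangles for 1 library left out. *Hspb1* and *Hspb8* stay to the right of zero and *Cryab* to the left, and *Hspb2* and *Hspb7* each cross zero with 1 library left out.

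Transcripts of skeletal muscle, a tissue that holds much of the family, differed between the libraries. The 34 markers of skeletal muscle summed to 831, 277 and 345 CPM in YT-FF and to 5216, 749 and 318 CPM in YT-AKO. YT-AKO 1 thus held 10.8 times the YT-FF mean, and YT-AKO 3 held 0.657 times. *Acta1* alone gave 62.1% of the sum in YT-AKO 3, against 14.9% to 41.6% in the other libraries, and without it the sum was 120 CPM there and 236 to 700 CPM in YT-FF. Between 0 and 2 markers were at 0 in each YT-FF library, and 1 to 4 in each YT-AKO library. In YT-AKO 3, where the muscle sum was within the YT-FF range, or below it without *Acta1*, *Hspb1* (212 CPM), *Hspb8* (200 CPM) and *Hspb6* (34.4 CPM) were above every YT-FF library. *Cryab* in YT-AKO 1 (45.3 CPM) lay within the YT-FF range, while *Hspb7* and *Hspb3* had their highest values in that library. With the mean of the muscle markers as a covariate, the log2 fold change was 1.27 for *Hspb8* (edgeR adjusted p = 0.0436) and 0.26 for *Hspb7*. The part of muscle in the values of the members, *Hspb1*, *Hspb8* and *Hspb6* included, was not tested.

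Other marker lists were read in the same way. Smooth muscle and mural cell markers summed to 847 to 947 CPM in YT-FF and 808 to 1069 CPM in YT-AKO, so their ranges overlapped. Adipocyte markers summed to 23879 to 32129 CPM in YT-FF and 47105 to 92606 CPM in YT-AKO. Their median log2 fold change was 0.42, and 4 of 12 were called higher. The thermogenic genes, such as *Ucp1*, summed to 260 to 378 CPM in YT-FF and 1999 to 4275 CPM in YT-AKO, and 8 of 12 were called higher. B cell markers went the other way, with 1137 to 1355 CPM in YT-FF and 665 to 995 CPM in YT-AKO, and 4 of 7 were called lower. Macrophage markers (1203 to 1399 CPM in YT-FF, 1817 to 2521 CPM in YT-AKO) and fibroblast markers (4355 to 5350 CPM, then 5753 to 8130 CPM) had sums that did not overlap. Of 8 macrophage markers 2 were called higher, and of 10 fibroblast markers 4 were called higher and 1 lower. Over all tested genes, 12.6% were called higher and 9.01% lower. Every YT-AKO library lay above every YT-FF library for 25.7% of single genes. With library totals alone, 1 adipocyte and 1 fibroblast marker were called higher, and the same held with the muscle covariate. Both settings kept 8 thermogenic and 2 macrophage calls. No gene of the marker lists was called without YT-FF 1 or without YT-FF 2. The sums of endothelial markers (833 to 918 CPM, then 794 to 1283 CPM) and of Schwann cell markers (587 to 660 CPM, then 489 to 621 CPM) overlapped, and epithelial markers stayed at 4.02 to 6.57 CPM in all libraries. The part of these shifts in the values of *Hspb1* and *Hspb8* was not tested.

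**Figure D4:**
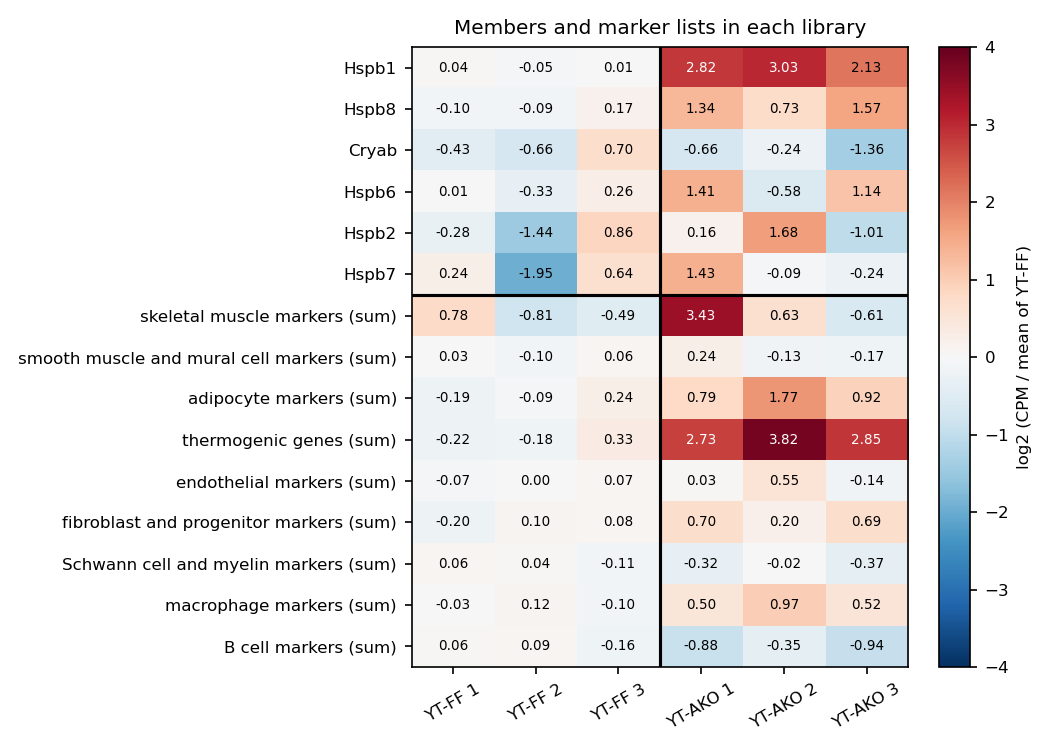
Colours and numbers give the log2 ratio of each library to the YT-FF mean, for 6 members (upper rows, CPM) and for marker lists (lower rows, summed CPM), with YT-FF on the left and YT-AKO on the right. The muscle sum is highest in YT-AKO 1 (3.43). *Hspb1* is at 2.13 to 3.03 in all 3 YT-AKO libraries, and *Hspb6* is negative in YT-AKO 2 (-0.58).

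Members differed in which genes followed them over the 6 libraries. Likeness was measured as the root mean square difference of log2 CPM, each gene centred on its own mean, among 15179 genes with a mean of at least 1 CPM. The nearest to *Hspb1* was *Chchd10* (0.180), which encodes a mitochondrial intermembrane space protein, followed by *Ttc25* (0.264) and *Igsf21* (0.273). Closest to *Hspb8* were *Letmd1* (0.113), *Ldhd* (0.124), a mitochondrial D-lactate dehydrogenase, and *Gpd1* (0.128), the cytosolic glycerol-3-phosphate dehydrogenase of adipocytes. *Hspb6* was followed by ENSMUSG00000118502 (0.167), the metalloprotease gene *Mmp19* (0.195) and Gm13910 (0.200), which shared its low value in YT-AKO 2. *Cryab* was nearest to *Clca2* (0.199), *Shisa8* (0.269) and *Ulk4* (0.274). The low-count members had poorer matches, Gm11730 for *Hspb2* (0.365) and *Slc10a6* for *Hspb7* (0.445). Among the members themselves, *Hspb6* and *Hspb8* were the closest pair (0.50) and *Hspb1* and *Cryab* the farthest (1.69). These are descriptions over 6 libraries, which all the genes share.

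More of the family's partner genes were called higher than lower in YT-AKO. In 8 lists of other small heat shock proteins (none tested), chaperones, co-chaperones, heat shock factors and partner kinases, 30 of 85 tested genes were called higher (35.3%) and 3 lower (3.53%), beside 12.6% and 9.01% of all tested genes. Some HSP70 proteins refold the clients that small heat shock proteins hold. Of the 15 genes for HSP70 and HSP110 proteins, 7 rose and 1 fell. Their median log2 fold change was 0.40 against -0.02 over all tested genes. *Hspa8*, the constitutive HSP70, had 972, 1024 and 1000 CPM in YT-FF and 2347, 2472 and 1734 CPM in YT-AKO (log2 fold change 1.13, edgeR adjusted p = 0.0197). *Hspa2* rose too (1.49, edgeR adjusted p = 0.0177), while *Hspa12a* fell (-0.98, edgeR adjusted p = 0.0249).

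The stress-inducible *Hspa1a* and *Hspa1b* were led by 1 library. *Hspa1b* had 4.65, 4.31 and 4.17 CPM in YT-FF and 58.0, 7.90 and 10.7 CPM in YT-AKO (log2 fold change 2.54, edgeR adjusted p = 0.0441). *Hspa1a* had 1.92, 2.07 and 2.06 CPM in YT-FF and 24.5, 4.66 and 3.43 CPM in YT-AKO (2.43, edgeR adjusted p = 0.0497). YT-AKO 1, the library with the highest muscle sum, was far above the others for both genes. All YT-AKO values were above all YT-FF values, as for 25.7% of the tested genes. The 2 genes are near-identical copies, so their counts, from which fragments with several matches were left out, are uncertain. In TMM-scaled CPM, *Hspb1* was highest in YT-AKO 2 instead (395 against 341 CPM in YT-AKO 1). In TPM it was highest in YT-AKO 1 (922 against 672 TPM in YT-AKO 2), so this order followed the scaling. *Hsf1* itself did not pass the test (0.27, edgeR adjusted p = 0.170), and *Hsbp1*, a small binding partner of heat shock factor, was the only one of the 5 tested genes of its list that rose (1.12, edgeR adjusted p = 0.0204).

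In the next 3 lists, every called gene was higher in YT-AKO. Of 15 genes of the HSP90 group 7 rose and none fell (median 0.71), with the smallest p for the HSP90 activator *Ahsa1* (1.36, edgeR adjusted p = 0.0166), *Fkbp4* (1.32, edgeR adjusted p = 0.0185) and the mitochondrial *Trap1* (1.08, edgeR adjusted p = 0.0185). Of 18 HSP40 genes, whose proteins bring clients to HSP70, 5 rose and none fell (median 0.24), with *Dnaja3* (0.79, edgeR adjusted p = 0.0187), *Dnajc15* (1.74, edgeR adjusted p = 0.0192) and *Dnajb2* (1.03, edgeR adjusted p = 0.0212). Of 10 chaperonin genes 5 rose and none fell (median 0.76). They included the mitochondrial pair *Hspd1* (0.93, edgeR adjusted p = 0.0207) and *Hspe1* (1.87, edgeR adjusted p = 0.0238) and the cytosolic subunit *Cct3* (0.97, edgeR adjusted p = 0.0321).

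The genes of chaperone-assisted autophagy, in which HSPB8 acts, gave 4 rises and 1 fall among 11 (median 0.62). The rises depended on the setting, with 2 left without YT-AKO 3 or with library totals alone, 1 after the length correction, and 0 with the muscle covariate or without YT-FF 3. *Bag3*, the partner of HSPB8, had 48.5, 36.8 and 43.5 CPM in YT-FF and 98.7, 59.9 and 88.3 CPM in YT-AKO (0.94, edgeR adjusted p = 0.0278). Its lowest YT-AKO value was in YT-AKO 2, as for *Hspb8*. *Bag1* (1.30, edgeR adjusted p = 0.0273) and *Hspbp1* (1.37, edgeR adjusted p = 0.0312), both regulators of HSP70, rose as well. *Synpo2*, an actin-binding partner of BAG3 that is also on the smooth muscle list, fell from 104 ± 14.7 to 32.5 ± 11.7 CPM (-1.68, edgeR adjusted p = 0.0177). Among 11 tested kinases and binding partners, *Mapkapk2*, the kinase of HSPB1, rose (0.58, edgeR adjusted p = 0.0308) and *Prkacb*, a catalytic subunit of protein kinase A, fell (-0.62, edgeR adjusted p = 0.0321). Neither call was left with the muscle covariate, without YT-FF 3 or without YT-AKO 3. No kinase or partner was called higher with library totals alone, with no filter or without YT-AKO 1, and none lower after the length correction. Without YT-AKO 1, 25 genes of the 8 lists were called in place of 33, among them 4 of the HSP70 list as higher and 1 as lower. No gene of these lists was called without YT-FF 1 or without YT-FF 2. With library totals alone, 13 were called higher and 3 lower, and the medians of the HSP40 list and the heat shock factors were then -0.08 and -0.06.

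**Figure D5:**
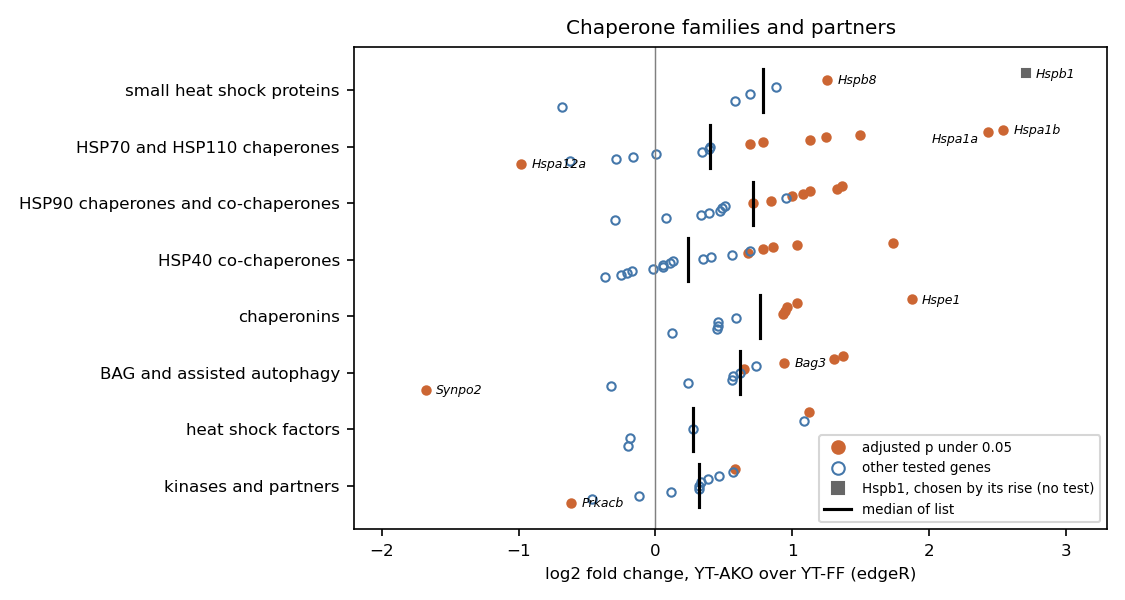
Each point is a tested gene, placed by its log2 fold change (horizontal axis) within its list (vertical axis), with called genes filled, the list's median as a black line and *Hspb1* as a grey square. The rows are the members and the 7 partner lists with tested genes, their medians all lie right of zero, and *Synpo2* is the leftmost gene.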

How the data were processed

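Groups of the 6 scWAT libraries follow the labelled genotype. The authors aligned paired-end reads to mm10 with HISAT2 and assigned fragments to the exons of GENCODE vM25 with featureCounts v2.0.1. The deposited values are raw counts per gene, unstranded, and leave out multimapping fragments and those on more than 1 gene. Total counts ran from 17740987 to 21838493 per library. Floors cover counting error only, since fragments carry no molecular identifiers.

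Symbols of 55141 of 55401 genes came from the mouse gene table used here. Counts were fitted in R 4.3.3 with edgeR 4.0.16 (TMM, filterByExpr with a minimum count of 10 and a minimum total of 15, quasi-likelihood test, Benjamini-Hochberg adjustment over 16807 genes). The biological coefficient of variation was 0.288. TPM used the deposited exon lengths, and its shares over all genes were added after the values were seen. The tests were checked on simulated counts, where edgeR recovered 19 of 100 genes with a log2 change of 1 and 87 of 100 with 2. Most changes of the smaller size were thus missed in the simulation, with 16 false calls by edgeR. It changed 100 genes of each size among 16807, while 3636 genes were called in the data. The recovered shares therefore may not carry over to the data. DESeq2 1.42.0, limma-voom (limma 3.58.1), other scalings and filters, a replicate block, a length correction (spline with 6 degrees of freedom), a muscle covariate and leaving out each library served as alternatives. The named genes were all members, the 3 smallest p in each chaperone list with *Hsf1*, *Hspa1a*, *Hspa1b*, *Bag3* and *Hspa8*, and the 3 nearest profiles of each member. Further genes were named after their values were seen. The members, lists and tests were chosen with earlier results of these data known. Libraries are taken as separate mice, as the methods give 3 per group. p-values measure the spread between them. Motif letters were searched in RefSeq promoter windows of GRCm38.p6, the build of the files.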

Additional observations from a re-analysis of the deposited data

How the results depend on the processing

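The direction of *Hspb6*, *Hspb8* and *Cryab* held in every alternative run. That of *Hspb1* held too, but the gene was picked for its rise in these same libraries, so this is no support. Over the fits that each left out 1 library, the log2 fold change ran from 1.08 to 1.46 for *Hspb8*, 0.53 to 1.28 for *Hspb6*, -0.29 to 1.43 for *Hspb2* and -0.14 to 1.05 for *Hspb7*, and the negative values came without YT-AKO 2 for *Hspb2* and without YT-AKO 1 for *Hspb7*. The genes called at an adjusted p under 0.05 went from 3636 to between 0 and 5349, the members called beside *Hspb1* from 1 to between 0 and 2, and the genes of the chaperone lists from 33 to between 0 and 47. The lowest counts came without YT-FF 1 (0 genes by edgeR, 4665 at an unadjusted p under 0.05) and without YT-FF 2 (2 genes, 4507 unadjusted). The highest came without YT-AKO 2. Without YT-FF 3, 1232 genes and 10 of the chaperone lists were called.

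The labels do not say whether the replicate numbers pair samples across the groups, and with 3 libraries per group the correlations cannot settle it. Samples with the same number had correlations of deviations of 0.11, -0.11 and -0.09, and not every sample correlated best with its own number. With the replicate block, 33 genes, 0 members beside *Hspb1* and 0 genes of the chaperone lists were called (5806 genes at an unadjusted p under 0.05), and *Hspb8* was at 1.22 (edgeR adjusted p = 0.0584). With the block and the length correction together, these were 65, 0 and 0, with *Hspb8* at 0.92 (edgeR adjusted p = 0.0751). The length correction alone called 2308 genes, and the muscle covariate 1499 genes and 16 of the chaperone lists. Library totals alone moved the median of all genes to -0.34 and the calls from 2121 higher and 1515 lower to 1137 and 2828, with 16 in the chaperone lists. The cause of these changes was not tested. By a stricter rule, with both an adjusted p under 0.01 and an absolute log2 fold change over 1, edgeR called 15 genes higher and 6 lower, and DESeq2 1339 and 675. *Hspb7* was not tested under the minimum of 10 counts in every library, and *Hspb3* only with DESeq2 and without a filter. Counts of 10 to 65 for *Hspb2* and 7 to 55 for *Hspb7* limit what can be said of them.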
